A study of Caenorhabditis elegans with 12 samples.

Results

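The DLK-1 axon regeneration kinase pathway was followed here through 6 genes of the deposited gene count table, taken by their identifiers: *dlk-1* (F33E2.2), *mkk-4* (F42G10.2), *pmk-3* (F42G8.4), *cebp-1* (D1005.3), *rpm-1* (C01B7.6) and *fsn-1* (C26E6.5). They are 6 of the 46653 gene identifiers in the table, and all 6 were among the 16741 genes that passed the filter on low counts. The genes were chosen by name, with the measured counts of all 4 genotypes in these libraries known, so their own levels and changes are given as a description, without a p-value.

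When a worm neuron is cut, the MAP kinase kinase kinase DLK-1 activates the kinase MKK-4, which activates the p38 kinase PMK-3; this cascade acts through the kinase MAK-2 on the bZIP transcription factor CEBP-1, and growth cone formation fails without it. The large ubiquitin ligase RPM-1, together with its F-box partner FSN-1, marks DLK-1 for degradation and so keeps the cascade low in intact neurons. The *dlk-1* gene encodes a long active and a short inhibitory isoform, and counts per gene do not separate them. Reduced insulin/IGF-1 signaling (IIS) is known from *daf-2* mutants to let aging neurons regrow better.

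The study asked how loss of double-stranded RNA processing adds to the long life of a weak IIS mutant. The 4 genotypes sequenced had 3 independent worm populations each. They were *age-1(hx546); rde-4(ne301)* double mutants, *age-1(hx546)* mutants with a missense allele of the IIS phosphatidylinositol 3-kinase, *rde-4(ne301)* mutants that lack RDE-4, which helps Dicer cut double-stranded RNA, and the N2 wild type (WT). All were populations synchronized as starved larvae, fed *E. coli* OP50 at 20 °C and harvested in young adulthood while no embryos could be seen. RNA was taken from whole worms, so fewer cells of a type and less RNA per cell cannot be told apart, and since each genotype is a strain of its own, anything else a strain carries cannot be told apart from its named alleles.

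Libraries held 74501098 to 82446102 counts. The *rde-4* transcript checked the labels: it lay between 25.4 and 32.0 CPM (counts scaled to library size, with TMM factors) in the 6 libraries of genotypes with *rde-4(ne301)* and between 138 and 201 CPM in the other 6, while the *age-1* transcript, whose allele is missense, checks nothing. Replicates of a group differed far beyond counting noise, most of all *age-1; rde-4* replicate 1, whose chi-square per gene was 187 against replicate 2 and 154 against replicate 3, with 27.2 the lowest value for any pair.

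*dlk-1* was the gene of the cascade that stood apart, and it did so in the double mutant. The gene lies on the minus strand of chromosome I of WBcel235, at chrI:12565800-12572801, and has 5 annotated transcripts. It was at 51.9, 80.3 and 62.5 CPM in the 3 *age-1; rde-4* libraries, at 20.99, 20.4 and 17.4 CPM in *age-1*, at 15.7, 17.5 and 18.2 CPM in *rde-4* and at 14.2, 17.99 and 15.6 CPM in WT. The lowest double mutant library was 2.47-fold above the highest of the other 9, and the levels of the other genotypes overlapped one another. These levels come from 4233, 6596 and 5207 counts in the double mutant and from 1048 to 1591 counts in the other libraries.

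The mean level of *dlk-1* was 64.9 ± 14.4 CPM in *age-1; rde-4* (SD, n = 3 populations, as for all means), 19.6 ± 1.93 CPM in *age-1*, 17.1 ± 1.27 CPM in *rde-4* and 15.9 ± 1.90 CPM in WT. The fitted log2 fold change of the double mutant was 1.73 (SE 0.16) against *age-1*, 1.92 (SE 0.17) against *rde-4* and 2.03 (SE 0.17) against WT. The single mutants lay close to WT by comparison, with a log2 fold change of 0.30 (SE 0.16) in *age-1* and 0.10 (SE 0.16) in *rde-4*. The double mutant therefore exceeded the level given by adding both single changes by 1.62 on the log2 scale (SE 0.23), which is the interaction of the mutations. Without *age-1; rde-4* replicate 1 the log2 fold change against WT was 2.16, and without replicate 2, the highest library, it was 1.85.

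**Figure D1:**
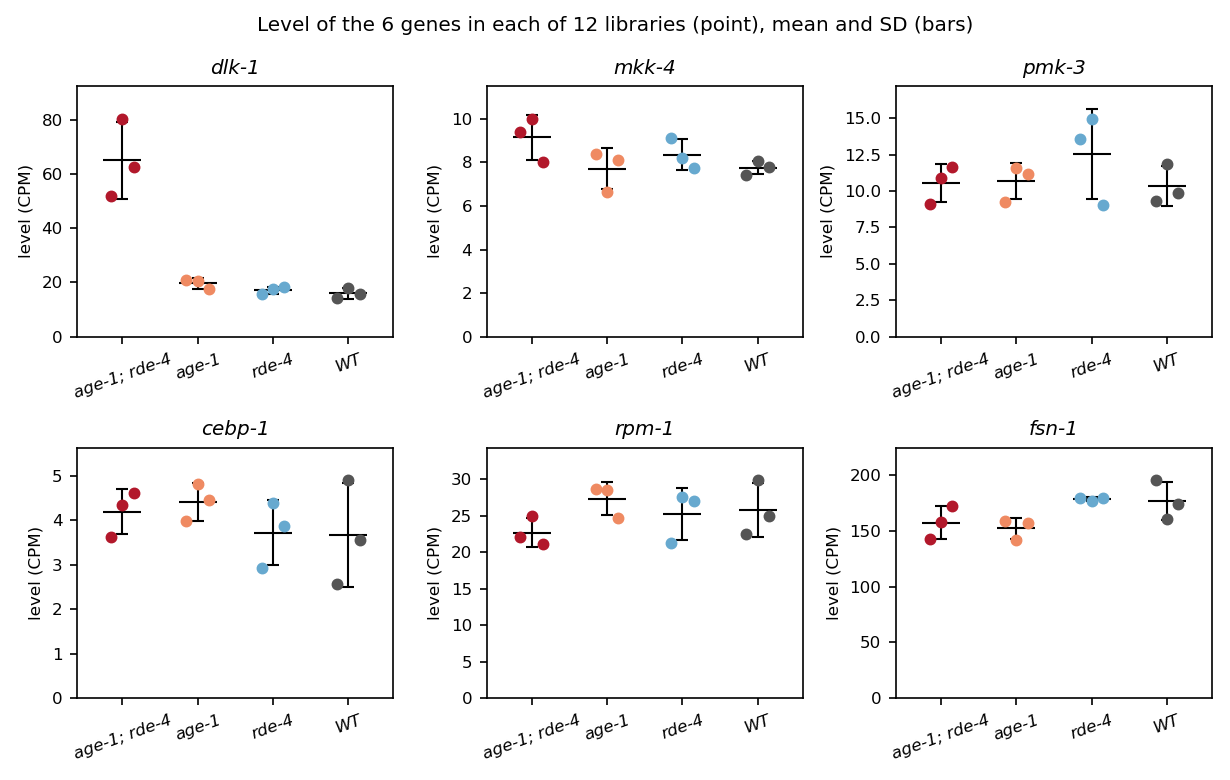
Level (CPM, linear axis from 0) of the 6 genes in each library (points, 3 per genotype), with the mean (wide bar) and SD (error bar) of each genotype; genotypes run *age-1; rde-4*, *age-1*, *rde-4*, WT. The double mutant libraries of *dlk-1* lie between 51.9 and 80.3 CPM and all other libraries between 14.2 and 20.99 CPM, while the genotypes overlap for most other genes.

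The kinases below DLK-1 did not share this pattern. *mkk-4* (chrX:10027856-10030130, plus strand), the MAP kinase kinase, was at 9.42, 10.01 and 8.01 CPM in *age-1; rde-4*, at 8.38, 6.66 and 8.12 CPM in *age-1*, at 9.14, 8.19 and 7.75 CPM in *rde-4* and at 7.44, 8.07 and 7.80 CPM in WT. The groups overlapped in each comparison, although 2 of the 3 double mutant libraries were the highest of all 12. Its log2 fold change in the double mutant was 0.25 (SE 0.16) against *age-1* and 0.24 (SE 0.16) against WT.

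*pmk-3* (chrIV:8139219-8143154, plus strand), the p38 kinase at the end of the cascade, was at 9.08, 10.9 and 11.6 CPM in *age-1; rde-4*, at 9.26, 11.6 and 11.2 CPM in *age-1*, at 13.6, 15.0 and 9.05 CPM in *rde-4* and at 9.30, 11.9 and 9.89 CPM in WT. The *rde-4* group held both the 2 highest libraries and the lowest one of the 12, which gave it a mean of 12.5 ± 3.09 CPM, against 10.4 ± 1.35 CPM in WT. The log2 fold change was −0.02 (SE 0.20) in the double mutant against *age-1* and 0.28 (SE 0.20) in *rde-4* against WT.

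*pmk-3* shares an operon with the p38 genes *pmk-1*, which acts in innate immunity, and *pmk-2*. All 3 genes showed the same split inside the *rde-4* group: *pmk-2* was at 7.35, 7.13 and 4.22 CPM in the 3 *rde-4* libraries and *pmk-1* at 20.6, 20.9 and 16.1 CPM, so that replicate 3 was the lowest each time. Across the 12 libraries the log2 level of *pmk-3* had r = 0.86 with *pmk-2* and 0.75 with *pmk-1*, and 0.83 and 0.79 after the genotype means were removed. These correlations describe 12 libraries that share their scaling and carry no test.

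*cebp-1* (chrX:1452695-1453868, minus strand), the transcription factor at the output of the cascade, was at 3.62, 4.35 and 4.61 CPM in *age-1; rde-4*, at 3.97, 4.80 and 4.44 CPM in *age-1*, at 2.92, 4.38 and 3.86 CPM in *rde-4* and at 2.56, 4.90 and 3.56 CPM in WT. WT alone spanned the whole range of the 12 libraries. Its log2 fold change was −0.07 (SE 0.24) in the double mutant against *age-1* and 0.19 (SE 0.25) against WT. Its groups overlapped in each comparison, and protein and activity were not measured for any of the 6 genes.

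The ligase genes that restrain DLK-1 protein did not stand apart in the double mutant. *rpm-1* (chrV:8805399-8819955, minus strand) was at 22.03, 24.97 and 21.1 CPM in *age-1; rde-4*, at 28.7, 28.6 and 24.7 CPM in *age-1*, at 21.2, 27.5 and 27.035 CPM in *rde-4* and at 22.5, 29.9 and 25.005 CPM in WT. The double mutant libraries lay in the lower part of the range but overlapped each other genotype. The log2 fold change of the double mutant was −0.27 (SE 0.15) against *age-1* and −0.18 (SE 0.15) against WT.

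*fsn-1* (chrIII:4937322-4939453, plus strand) was at 142, 158 and 172 CPM in *age-1; rde-4*, at 158, 141 and 157 CPM in *age-1*, at 179, 176 and 179 CPM in *rde-4* and at 195, 161 and 174 CPM in WT. The *age-1* libraries all lay below the WT libraries, and the double mutant libraries all below the *rde-4* libraries, by a small margin in both. The same held for *uev-3* and *rae-1*, uncalled genes of the wider pathway described below, so this does not set *fsn-1* apart. The log2 fold change of *fsn-1* was −0.22 (SE 0.10) in *age-1* against WT and −0.18 (SE 0.10) in the double mutant against *rde-4*, and neither passed the test over all genes.

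**Figure D2:**
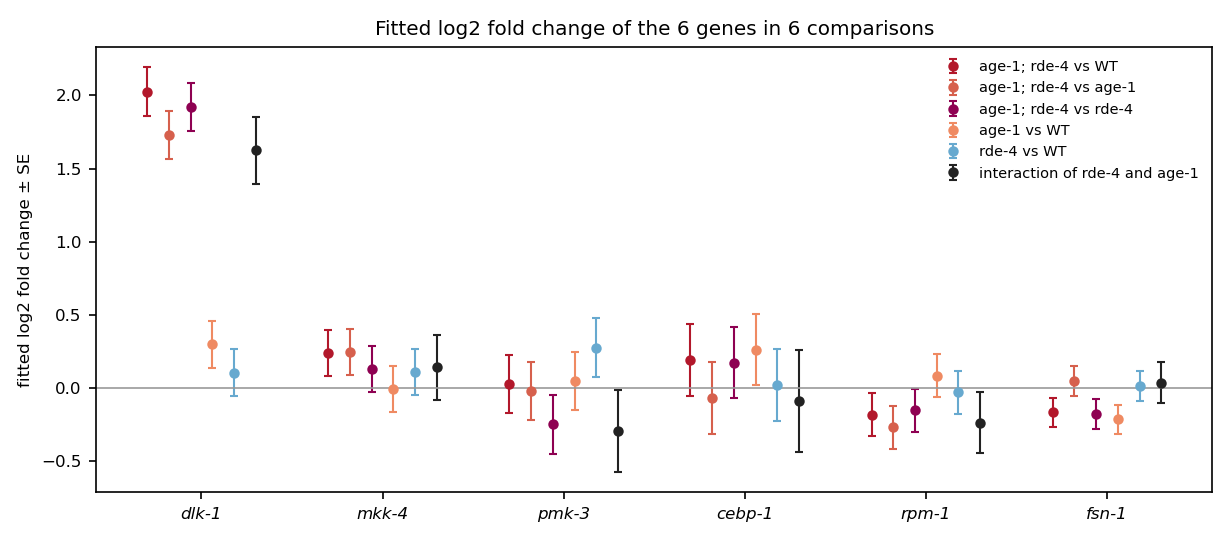
Fitted log2 fold change (points) with its SE (bars) of the 6 genes in 5 comparisons of genotypes and for the interaction of the mutations. *dlk-1* lies farthest from 0, at 1.73 to 2.03 in the comparisons of the double mutant and 1.62 for the interaction. The other 5 genes lie between −0.29 and 0.28, with *fsn-1* at −0.22 (SE 0.10) in *age-1* against WT.

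Read against all genes, 1 of the 6 genes, *dlk-1*, passed the threshold (adjusted p under 0.05 in edgeR's quasi-likelihood test) in the double mutant against *age-1*, where 0.424% of the 16741 genes tested passed. It was also the 1 of 6 that passed in the double mutant against *rde-4* (1.59% of all genes), in the double mutant against WT (12.1% of all genes) and for the interaction (0.113%, or 19 genes). None of the 6 passed in *age-1* against WT (14.8% of all genes) or *rde-4* against WT (4.49% of all genes). None did at an unadjusted p under 0.05 either, beside 33.2% and 14.4% of all genes. With DESeq2 none of the 6 was called, beside 3764 and 1317 of the 16741 genes. These comparisons share their libraries, and since the genes were picked with results known, nothing further is read from the counts. The interaction of *dlk-1* missed the threshold when *rde-4* replicate 2 or any one *age-1* library was left out, with a log2 value of 1.64 without *rde-4* replicate 2 and of 1.67, 1.65 and 1.54 without *age-1* replicates 1, 2 and 3, and at 1.70 when the level of collagen genes was added as a covariate.

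Per kilobase of exon, *fsn-1* was the most abundant of the 6 by far, with a median over the 12 libraries of 123 CPM per kilobase. *pmk-3* followed at 5.92, *dlk-1* at 5.73, *mkk-4* at 5.15, *cebp-1* at 3.87 and *rpm-1* at 2.16 CPM per kilobase. The ranges over libraries of *pmk-3* (4.85 to 8.02), *mkk-4* (4.24 to 6.38) and *dlk-1* outside the double mutant overlapped, so that their order is not beyond the spread. In the double mutant the mean of *dlk-1* was 20.6 CPM per kilobase, against 6.21 in *age-1*, 5.43 in *rde-4* and 5.05 in WT, which put it above each other gene of the set except *fsn-1*. The highest library exceeded the lowest 5.65-fold for *dlk-1*, and 1.38-fold to 1.91-fold for the other 5 genes.

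The 6 genes did not vary as a block. Across the 12 libraries r of log2 levels was 0.56 between *dlk-1* and *mkk-4*, but 0.07 once the genotype means were removed. Between *dlk-1* and *rpm-1* it was −0.34 over all libraries and 0.76 within genotypes, and between *cebp-1* and *rpm-1* it was 0.56 and 0.75. Between *dlk-1* and *cebp-1* it was 0.33 and 0.58, so *dlk-1*, *cebp-1* and *rpm-1* ran together within genotypes. The remaining pairs of the 6 had r between −0.58 and 0.30 over all libraries and between −0.50 and 0.45 within genotypes.

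Among the 12164 genes with a mean of at least 1 CPM, the level of C27D8.3 (chromosome IV) was the most like that of *dlk-1* over the 12 libraries, with r = 0.98. It averaged 58.1 CPM in *age-1; rde-4*, 15.5 CPM in *age-1*, 16.99 CPM in *rde-4* and 15.1 CPM in WT, close to the values of *dlk-1* itself. F41B5.1 (r = 0.94) and F08F1.4 (r = 0.92) followed, at 5.77 and 14.7 CPM in the double mutant, against 2.85 and 8.97 CPM in WT. The 3 most alike were C29F7.2, *atgp-2* and *osm-11* for *mkk-4* (r = 0.81 to 0.84), *nhr-170*, *pmk-2* and *slc-28.1* for *pmk-3* (0.82 to 0.87), and C11E4.6, *toe-4* and *cas-1* for *cebp-1* (0.94 to 0.97). They were F59C12.3, K07E3.1 and *pes-7* for *rpm-1* (0.92 to 0.94) and *dpff-1*, *nop-1* and Y73E7A.1 for *fsn-1* (0.97 to 0.98).

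A level of the double mutant apart from every other library was rare. Of the 12164 genes, 4 had all 3 double mutant libraries at least 2-fold above each of the other 9: C27D8.3 (2.54-fold at the nearest libraries), *dlk-1* (2.47-fold), the esterase family gene *cest-1.1* (2.23-fold) and Y73B6BL.12 (2.05-fold). Below all others by the same margin were 2 genes, the cathepsin gene *cpr-5* (2.30-fold) and W02D9.4 (2.25-fold). These 6 genes were chosen after their values were seen, and W02D9.4 lies on chromosome I, 26.8 kb from *dlk-1*.

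The wider pathway was described by 4 lists with 56 genes, taken from knowledge of the pathway and all tested. In the double mutant no list gene passed the threshold against *age-1*, *rde-4* or WT, or for the interaction, with 0, 1 and 0 genes above and 6, 2 and 5 genes below at an unadjusted p under 0.05 in the 3 comparisons and 0 above and 2 below for the interaction. DESeq2 called 1 of them against *age-1* and 1 against WT, beside 443 and 2769 of the 16741 genes. Of all genes tested, 11% (*age-1*), 14% (*rde-4*) and 26.5% (WT) lay under this unadjusted p, and 12% for the interaction. With replicate number as a block 2 list genes passed against WT, beside 3339 of the 16741 genes. The median log2 fold change of the 56 genes against *age-1* was −0.13, and that of all genes tested −0.06. In *rde-4* against WT no list gene passed either (2 above and 2 below at an unadjusted p under 0.05, beside 14.4% of all genes), while 1 was called by DESeq2 and 1 with replicate number as a block. Of all genes, 1317 were called there by DESeq2 and 1186 with the block.

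Among the kinases and partners that work beside DLK-1, no gene passed the threshold. *mak-2*, the kinase between PMK-3 and CEBP-1, averaged 18.8 ± 2.35 CPM in *age-1; rde-4*, 21.4 ± 1.01 CPM in *age-1*, 21.2 ± 3.29 CPM in *rde-4* and 20.5 ± 2.85 CPM in WT. *uev-3*, the ubiquitin E2 variant that binds PMK-3, averaged 30.5 ± 1.69 CPM in *age-1; rde-4*, 28.2 ± 1.83 CPM in *age-1*, 36.0 ± 2.68 CPM in *rde-4* and 36.2 ± 3.44 CPM in WT. None of the 8 genes of this list (with *pmk-1*, *pmk-2*, *sek-1*, *nsy-1*, *tir-1* and *atf-7*) passed in any comparison, where 0.113% to 14.8% of all genes did. At an unadjusted p under 0.05, 1 was higher and 2 lower in *age-1* against WT, beside 33.2% of all genes. In *age-1; rde-4*, 2 were lower against WT and 1 against *rde-4*, beside 26.5% and 14% of all genes.

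The JNK branch, which works in parallel with DLK-1 in axon regeneration, had none of 10 genes past the threshold either. Of all genes, 0.113% to 14.8% passed, depending on the comparison. At an unadjusted p under 0.05 the branch had 1 gene higher and 1 lower in *rde-4* against WT (14.4% of all genes). It had 1 higher in *age-1* against WT (33.2%), 1 lower in *age-1; rde-4* against WT (26.5%) and 1 lower for the interaction (12%). Its kinases *mlk-1* and *kgb-1* averaged 6.72 ± 1.40 and 23.0 ± 0.69 CPM in *age-1; rde-4*, 7.88 ± 0.54 and 26.6 ± 0.90 CPM in *age-1*, 6.78 ± 1.14 and 21.8 ± 1.06 CPM in *rde-4*, and 6.21 ± 0.99 and 28.9 ± 3.595 CPM in WT. The dual-specificity phosphatase gene *vhp-1*, which limits this branch, averaged 15.0 ± 3.62 CPM in *age-1; rde-4*, 15.0 ± 1.99 CPM in *age-1*, 12.1 ± 1.43 CPM in *rde-4* and 12.04 ± 3.12 CPM in WT.

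In *age-1* against WT 3 of the 56 list genes passed, or 2 higher and 1 lower, beside 14.8% of all genes. *unc-43*, the worm CaMKII, rose to 41.8, 42.9 and 40.4 CPM in *age-1*, against 24.3, 34.4 and 27.5 CPM in WT (log2 fold change 0.54, SE 0.13, adjusted p = 0.0195 in edgeR). *anc-1*, a nuclear anchorage protein that binds RPM-1, rose to 382, 356 and 305 CPM in *age-1*, against 189, 291 and 233 CPM in WT (log2 fold change 0.55, SE 0.17, edgeR adjusted p = 0.0463).

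*parp-2*, a poly(ADP-ribose) polymerase of a family that limits axon regeneration in the worm, fell to 143, 127 and 137 CPM in *age-1*, against 192, 154 and 171 CPM in WT (log2 fold change −0.35, SE 0.10, edgeR adjusted p = 0.0331). The groups did not overlap for any of the 3 genes, but the WT libraries were spread widely. Uncalled list genes such as *nsy-1*, *uev-3* and *kin-1* did not overlap in this comparison either, so the lack of overlap does not set the 3 apart. In the double mutant *unc-43* averaged 32.3 ± 1.22 CPM and *parp-2* 151 ± 5.57 CPM, between *age-1* and WT. The 3 calls changed with single libraries: no list gene passed without WT replicate 1, WT replicate 3 or *age-1* replicate 2 or with the collagen covariate, 1 passed without *age-1* replicate 1 or 3, 14 passed without WT replicate 2, and 12 passed with replicate number as a block. Over all genes, 434, 353 and 389 passed without the first 3 of these libraries and 22 with the covariate. It was 1419 and 1268 without *age-1* replicates 1 and 3, 4187 without WT replicate 2 and 4594 with the block.

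**Figure D3:**
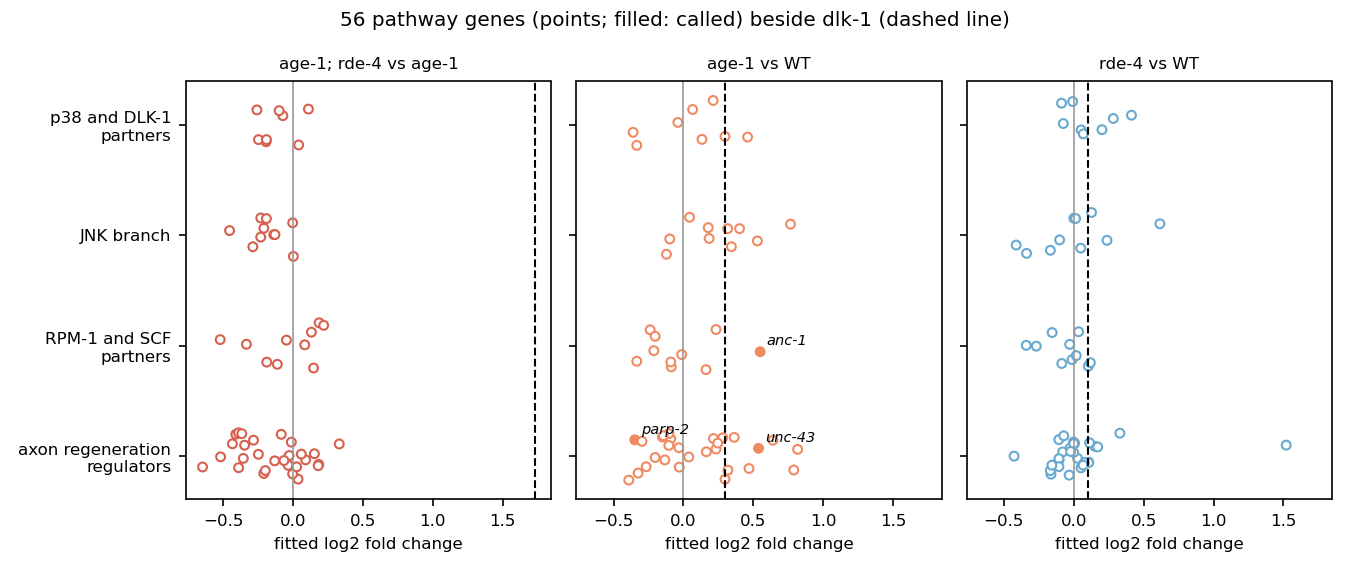
Fitted log2 fold change of the 56 genes of the 4 pathway lists (points, filled where called, spread vertically for legibility) and of *dlk-1* (dashed line) in *age-1; rde-4* against *age-1*, *age-1* against WT and *rde-4* against WT. In the double mutant *dlk-1* lies at 1.73 and the list genes between −0.65 and 0.33; *unc-43*, *anc-1* and *parp-2* are the called genes, all in *age-1* against WT.

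The genes around *dlk-1* were then examined, a window chosen after the values of *dlk-1* were seen. Of 34 annotated genes within 50 kb, 17 were tested. Of the 17, 1 passed in the double mutant against *age-1*, 1 against *rde-4*, 2 against WT and 1 for the interaction, where 0.424%, 1.59%, 12.1% and 0.113% of all genes did, and none of these was the nearest gene on either side. In *age-1* against WT 2 of the 17 passed, 1 higher and 1 lower, beside 14.8% of all genes. In *rde-4* against WT 0 passed, beside 4.49% of all genes.

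The neighbour called in all 4 was W02D9.4 (chrI:12537903-12538986, minus strand), a protein-coding gene that moved opposite to *dlk-1*. It was at 8.12, 10.2 and 9.37 CPM in *age-1; rde-4*, at 29.6, 22.9 and 27.1 CPM in *age-1*, at 32.9, 27.8 and 30.2 CPM in *rde-4* and at 38.3, 27.3 and 32.2 CPM in WT. Its log2 fold change in the double mutant was −1.53 against *age-1* (SE 0.16, adjusted p = 0.00105 in edgeR), −1.72 against *rde-4* (SE 0.16, edgeR adjusted p = 0.000593) and −1.82 against WT (SE 0.16, edgeR adjusted p = 0.000135). No double mutant library overlapped another genotype.

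The interaction of W02D9.4 was −1.42 (SE 0.22, edgeR adjusted p = 0.0284). It passed in 8 of 18 settings and missed the threshold without WT replicate 3 (−1.38), *rde-4* replicate 1 (−1.31) or 2 (−1.48), *age-1* replicate 1 (−1.33), 2 (−1.51) or 3 (−1.40), or *age-1; rde-4* replicate 1 (−1.34), 2 (−1.49) or 3 (−1.43), and without the filter on low counts (−1.40), while its value against *age-1*, *rde-4* and WT passed in 13 of 13 settings each.

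The other neighbours with calls did not follow the double mutant. *dpsm-1*, whose start site lies 21.3 kb from that of *dlk-1*, rose to 8.13, 5.77 and 4.68 CPM in *age-1*, against 1.40, 2.21 and 2.99 CPM in WT (log2 fold change 1.49, SE 0.36, edgeR adjusted p = 0.0219). It was at 8.87, 8.10 and 4.38 CPM in *age-1; rde-4*, a log2 fold change of 1.69 against WT (SE 0.37, edgeR adjusted p = 0.0105) and 0.20 against *age-1* (SE 0.35). Its call in *age-1* was lost without WT replicate 1 (log2 fold change 1.27) or 3 (1.78) or *age-1* replicate 1 (1.25) or 2 (1.54), or with the collagen covariate (1.38).

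*mec-19*, a touch sensitivity gene on the opposite strand, overlaps the end of *dlk-1* by 96 bases. It fell to 33, 31 and 25 counts in *age-1*, against 117, 85 and 74 counts in WT (log2 fold change −1.69, SE 0.43, edgeR adjusted p = 0.0243). It held 70, 31 and 23 counts in *age-1; rde-4* and 37, 47 and 45 counts in *rde-4*, also below WT, at a log2 fold change of −1.30 (SE 0.42) and −1.20 (SE 0.42) that did not pass. Its call was lost without WT replicate 1 (−1.45) or 3 (−1.84) or *age-1* replicate 1 (−1.78), 2 (−1.71) or 3 (−1.57), or with the collagen covariate (−1.52). Whether the authors' counting used the strand is not given in the sources used here, so reads in the shared 96 bases may belong to either gene. The part of this overlap in the counts of *dlk-1* was not tested. Over 1 Mb on each side, 2 of 296 genes tested other than *dlk-1* passed in the double mutant against *age-1* (0.676%, beside 0.424% of all genes), W02D9.4 among them.

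**Figure D4:**
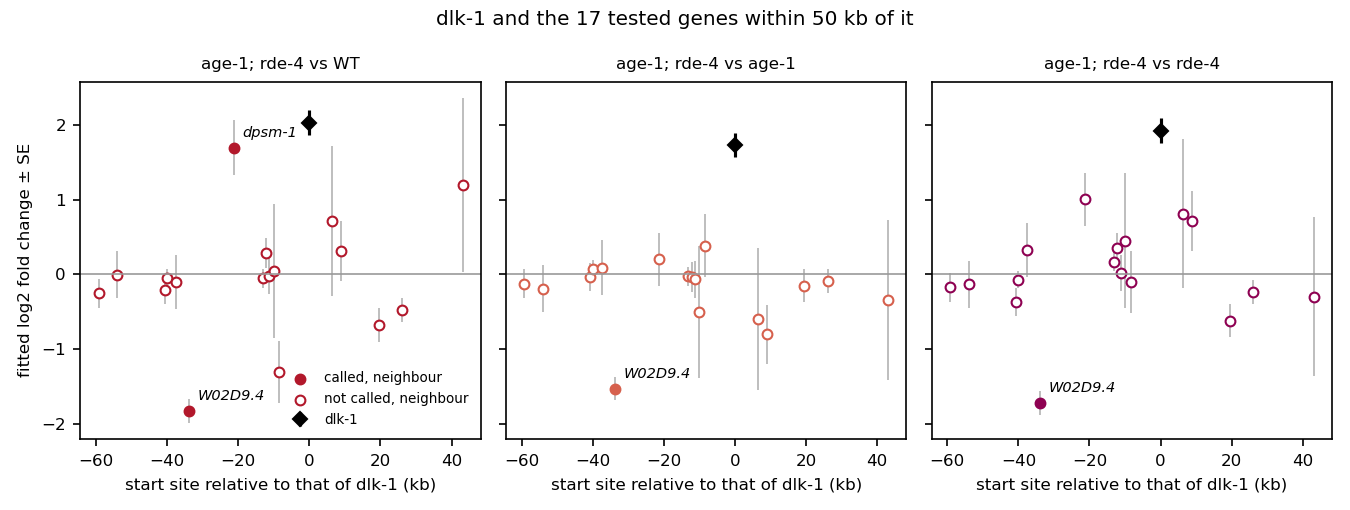
Fitted log2 fold change (points, filled where called) with SE (bars) of the 17 tested genes within 50 kb of *dlk-1* and of *dlk-1* itself (diamond), against the distance of their start sites in kb, in *age-1; rde-4* against WT, *age-1* and *rde-4*. *dlk-1* lies at 1.73 to 2.03 and W02D9.4 at −1.53 to −1.82 in all 3 panels, with *dpsm-1* also called against WT.

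The DLK-1 pathway is best known in neurons, which are a small part of a worm, so the level of neuron markers was set beside the 6 genes. Of 26 markers listed, 25 were in the table; the synaptic vesicle gene *snb-1* was detected at 66.98 to 103 CPM, while the touch neuron channel *mec-4* and the dopamine enzyme *cat-2* were at 0 in the lowest library. The markers summed to 259 to 288 CPM in *age-1; rde-4*, 308 to 328 CPM in *age-1*, 247 to 295 CPM in *rde-4* and 212 to 294 CPM in WT. In *age-1* against WT 5 of the 25 rose (*unc-31*, *ida-1*, *sbt-1*, *unc-13* and *mec-7*) and none fell, beside 14.8% of all genes called and 12.2% called higher. At an unadjusted p under 0.05 it was 12 above and none below, beside 33.2% of all genes in either direction. In the double mutant none passed in either direction against *age-1*, *rde-4* or WT (0, 3 and 5 above and 1, 1 and 0 below at an unadjusted p under 0.05). Of all genes, 0.424%, 1.59% and 12.1% passed in these comparisons, and 11%, 14% and 26.5% lay under this unadjusted p.

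*dlk-1* was highest in a genotype whose neuron markers lay in the middle of the range. Over the 12 libraries r between its log2 level and the mean centred log2 level of the markers was 0.14, and 0.29 within genotypes. *fsn-1* ran against the markers (−0.86, and −0.83 within genotypes), and *cebp-1* (0.64 and 0.56) and *rpm-1* (0.49 and 0.60) ran with them. *mkk-4* had 0.05 and *pmk-3* 0.21 over all libraries. These values were not particular to neurons: *fsn-1* had −0.74 and −0.72 with sperm markers and −0.70 and −0.54 with muscle markers, *cebp-1* had 0.63 over all libraries and within genotypes with muscle markers, and *rpm-1* had 0.53 and 0.52 with muscle markers. *dlk-1* had −0.35 over all libraries and 0.68 within genotypes with germline markers. The germline marker level was −0.57 in *age-1; rde-4* replicate 1, the double mutant library lowest in *dlk-1*, and 0.05 in replicates 2 and 3. The part of this library in the 0.68 was not tested. These values describe 12 libraries scaled together.

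Markers of other tissues also differed between libraries. In the double mutant against *age-1* none of the 12 muscle, 9 intestine, 12 sperm, 13 germline and 12 tested epidermis markers passed, beside 0.424% of all genes. At an unadjusted p under 0.05, 8 muscle, 4 intestine, 2 epidermis and 2 sperm markers were lower and 1 sperm marker higher in the double mutant, beside 11% of all genes. Against *rde-4* the intestinal esterase gene *ges-1* rose and the collagen gene *dpy-10* fell, and against WT 5 sperm markers and *ges-1* rose while 3 intestine markers and *dpy-10* fell, beside 1.59% and 12.1% of all genes called. In *age-1* against WT 9 sperm and 4 muscle markers rose, 2 epidermis markers rose, no germline marker passed, and of the intestine markers 1 rose and 1 fell, beside 14.8% of all genes called. Muscle markers summed to 2683 to 3548 CPM in *age-1; rde-4*, 3770 to 4275 CPM in *age-1*, 1922 to 3002 CPM in *rde-4* and 2060 to 3392 CPM in WT. The mean log2 level of the tested *col* collagen genes, centred over the libraries, ranged from −0.14 to 0.02 in *age-1; rde-4*, −0.04 to 0.48 in *age-1*, −0.02 to 0.43 in *rde-4* and −0.87 to 0.12 in WT. The part of these tissue differences in the levels of the 6 genes and in the calls of *unc-43*, *anc-1*, *parp-2*, *dpsm-1* and *mec-19* was not tested. With the collagen level as a covariate, the log2 fold change of *dlk-1* in the double mutant was 1.76 against *age-1* and 2.00 against WT. Without the covariate the values were 1.73 and 2.03. The interaction of *dlk-1* missed the threshold with the covariate. It covers collagen genes only, whose range itself differed between genotypes.

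**Figure D5:**
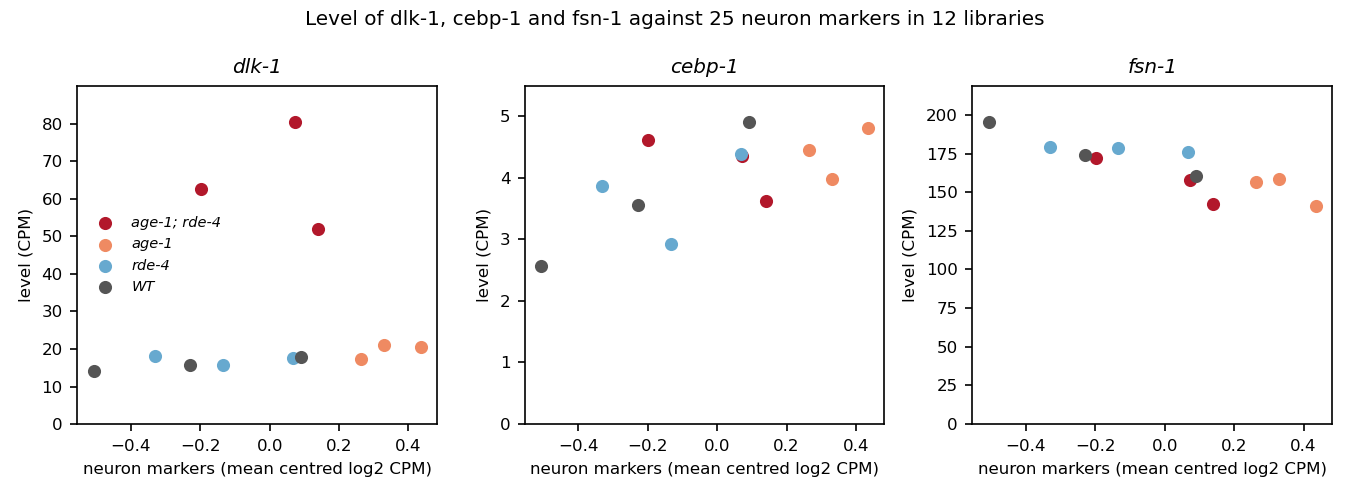
Level (CPM, linear axis from 0) of *dlk-1*, *cebp-1* and *fsn-1* in each library (points, coloured by genotype) against the mean centred log2 CPM of 25 neuron markers in the same library. The 3 double mutant libraries of *dlk-1* lie at 51.9 CPM or more at marker levels of −0.20 to 0.14, inside the range of the other libraries, while *fsn-1* is lower where the marker level is higher (r = −0.86).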

How the data were processed

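Ribosomal RNA was depleted and strand-specific libraries were sequenced. The authors aligned reads to WBcel235 by HISAT2 2.0.5, and StringTie gave the values per gene (version not given in the sources used here). The deposited table holds whole-number counts per gene, without normalization, for 46653 identifiers, of which 46181 matched the Ensembl 115 annotation. The counts were tested in edgeR 4.0.16 (R 4.3.3): filterByExpr (16741 genes), TMM scaling, 1 model of the 4 groups over 12 libraries, glmQLFit and glmQLFTest, two-sided, Benjamini-Hochberg adjustment over all genes, threshold 0.05. Levels are CPM; likeness and correlations used log2 CPM with a prior count of 2. P-values set the differences between genotypes against the spread between populations of the same genotype, and each genotype is a strain of its own.

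The 6 genes and all lists were chosen with earlier results of these data known. Named were the 6 genes, called genes of the pathway lists (at most 4 per list and comparison) and the 3 genes with the highest Pearson r to each member among genes with a mean of at least 1 CPM. The neighbours of *dlk-1*, the genes apart in the double mutant and pathway genes without a call were named after their values were seen. Alternatives were RLE size factors, DESeq2 1.42.0, no filter, only the groups compared, replicate number as a block, the mean level of the *col* collagen genes as a covariate, and each of the 12 libraries left out. Intervals other than SD and SE were not computed. No promoter or protein sequences were used here.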

Additional observations from a re-analysis of the deposited data

Results flagged for a closer look

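The effect of *rde-4* loss on *dlk-1* differed between the *age-1* and the WT background: the interaction was 1.62 on the log2 scale, with a log2 fold change of 1.73 in *age-1; rde-4* against *age-1* and of 0.10 in *rde-4* against WT. The effect on W02D9.4, 26.8 kb away, differed in the opposite direction, with an interaction of −1.42, a log2 fold change of −1.53 in *age-1; rde-4* against *age-1* and −0.11 in *rde-4* against WT. Both are among 19 of 16741 genes whose interaction passed in edgeR, and *dlk-1* was picked with this known.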

How the results depend on the processing

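The count of members past the threshold was the same under all alternatives run, except that for the interaction it was 0 with the collagen covariate and 0 to 1 with one library left out. Of the 56 pathway genes, 5 passed in *age-1* against WT with RLE size factors, 10 with DESeq2, 1 without the filter, 0 with the collagen covariate and 0 to 14 with one library left out, against 3. Over all genes 2572 passed with RLE size factors, 3764 with DESeq2, 1256 without the filter and 22 with the collagen covariate. In *age-1; rde-4* against WT 1 passed with DESeq2, 1 with the collagen covariate and 0 to 1 with one library left out, in *age-1; rde-4* against *age-1* 1 with DESeq2, and in *rde-4* against WT 1 with DESeq2 and 1 with the collagen covariate, against 0 each. DESeq2 called 2769, 443 and 1317 of all genes in these 3 comparisons. With the collagen covariate 1456 of all genes passed in *age-1; rde-4* against WT and 206 in *rde-4* against WT. With replicate number as a block 12 pathway genes passed in *age-1* against WT, 2 in *age-1; rde-4* against WT and 1 in *rde-4* against WT. Of all genes, 4594, 3339 and 1186 passed there with the block. The labels give replicate numbers without saying what pairs the libraries. Deviations of same-numbered libraries had r from −0.02 to 0.37, over 0.1 in 12 of 18 pairs. Their median was 0.16, against −0.06 for other pairs. Since not every pair was over 0.1, the main model did not take the number as a pairing, although the median was higher for same-numbered libraries. With the number as a block, 4594 genes passed in *age-1* against WT, against 2478 without it. In *age-1; rde-4* against *age-1*, 264 passed with the block, against 71 without it. Counts over all genes varied too: with one library left out, 353 to 4187 in *age-1* against WT, 981 to 2562 in *age-1; rde-4* against WT, 20 to 171 in *age-1; rde-4* against *age-1*, 85 to 288 in *age-1; rde-4* against *rde-4*, 267 to 1060 in *rde-4* against WT and 5 to 50 for the interaction. Under the other alternatives they were 22 to 4594, 1328 to 3339, 34 to 443, 69 to 788, 206 to 1317 and 2 to 338 in the same order. The cause of these differences was not tested. Of the fitted values of single genes, 527 kept their side of the threshold or moved within 1 SE, 40 lost their call with the same sign and 20 values of members moved by more than 1 SE. With 3 populations per genotype and 189 to 384 counts per library, *cebp-1* was the least precise of the 6 genes.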
